A study of Homo sapiens with 9 samples.

Results

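SI, HEPH, CDH17, SLC6A19, GLP2R, CDX2, VIL1, MEP1A, ANPEP and DPP4 are genes best known from the epithelium of the intestine, and their mRNA was measured here in Huh-7, a human cell line from a hepatocellular carcinoma. They are 10 of the 60664 genes in the count table, and all 10 were among the 17207 genes that passed the filter on low counts. No WT library reached the cutoff of that filter for SI or HEPH and no 1-1 KO library did for GLP2R, so that these 3 passed only through the lines in which they were high. They were chosen in 2 ways. SI, HEPH, CDH17, SLC6A19 and GLP2R were picked because their counts differed strongly between the lines measured here, so that their differences are a description and carry no test. CDX2, VIL1, MEP1A, ANPEP and DPP4 were taken as known enterocyte genes, and their differences were tested. In the cell line the mRNA of these genes is reported without any measurement of protein or of a cell surface.

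The 9 libraries came from 3 lines of Huh-7 with 3 libraries each. WT is the unedited line, 1-1 KO lacks the gene of vault RNA 1-1 (vtRNA1-1) and 1-2 KO lacks that of vtRNA1-2, a paralog of this short non-coding RNA transcribed by RNA polymerase III. The 1-2 KO line was grown from a single cell of the WT line after editing with CRISPR/Cas9, WT and 1-1 KO cells were obtained from another laboratory, and each knockout is represented by 1 line, so that an effect of the deletion and a difference between clones or cell stocks cannot be told apart. All cells were untreated and grown in DMEM F12 with serum and antibiotics. The study describes the libraries of a line as biological replicates, but nothing in the labels says that they came from separate cultures, and p-values then measure the spread between these libraries, which may be technical. Total counts were between 32384469 and 41782387. VTRNA1-1 had 0 or 1 count and VTRNA1-2 had 0 counts in every library, which leaves the labels unchecked. Vault RNAs are short and not polyadenylated, and the libraries were made from mRNA. The marker genes of hepatocytes summed to at least 11855 CPM in every library. Those of enteroendocrine cells summed to 1.10 to 4.57 CPM, mostly CHGB. Those of Paneth cells summed to 19.1 to 114 CPM, nearly all of it LYZ. NEUROG3 and CCK among the enteroendocrine markers and DEFA5 and ITLN2 among the Paneth cell markers were at 0 in all 9 libraries.

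Enterocytes are the absorptive cells of the intestinal lining. Their apical membrane is folded into microvilli, the brush border, which are stiffened by bundles of actin filaments with villin and carry enzymes that finish the digestion of sugars and peptides beside the transporters that take up the products. The homeobox transcription factor CDX2 drives this programme in the intestine, with factors of the HNF4 and GATA families that the liver also uses. Some of the enzymes, ANPEP and DPP4 among them, are also found on the canalicular membrane of hepatocytes, whereas SI and CDX2 are ordinarily silent in adult liver.

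CDX2 binds DNA around the letters TTTAT, and the promoters of SI, a classical CDX2 target, of SLC6A19 and of CDX2 itself are shown as those of the factor, of its best-known target here and of the transporter that differed from WT in opposite directions in the knockouts. Each sequence holds the 250 bases before the RefSeq start of the gene on GRCh38.p14, read on the strand of the gene, with TTTAT or its reverse complement ATAAA in capitals.
SI, chr3:165078497-165078746, minus strand: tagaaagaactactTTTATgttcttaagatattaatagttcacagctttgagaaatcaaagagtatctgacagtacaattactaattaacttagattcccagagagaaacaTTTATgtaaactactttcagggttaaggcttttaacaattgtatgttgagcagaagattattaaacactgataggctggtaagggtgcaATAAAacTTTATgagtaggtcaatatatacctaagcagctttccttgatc
SLC6A19, chr5:1201345-1201594, plus strand: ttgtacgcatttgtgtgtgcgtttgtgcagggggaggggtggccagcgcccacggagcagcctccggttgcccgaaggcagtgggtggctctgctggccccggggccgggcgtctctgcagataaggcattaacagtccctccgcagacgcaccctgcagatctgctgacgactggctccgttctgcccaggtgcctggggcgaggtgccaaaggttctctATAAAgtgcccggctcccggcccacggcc
CDX2, chr13:27969316-27969565, minus strand: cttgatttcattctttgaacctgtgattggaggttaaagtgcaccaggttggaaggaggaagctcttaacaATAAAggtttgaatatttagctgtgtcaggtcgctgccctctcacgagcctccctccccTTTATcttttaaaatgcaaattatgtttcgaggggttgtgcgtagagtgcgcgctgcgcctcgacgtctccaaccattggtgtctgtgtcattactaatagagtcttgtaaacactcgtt
The SI window held 4 such matches, starting 236, 139, 50 and 43 bases before the gene start, in a sequence with 31.6% G and C. The CDX2 window held 2, at 179 and 120 bases, the nearer of which overlaps a match to AGATAA, the letters of GATA factors, on the other strand. That of SLC6A19 held 1, at 29 bases, which is part of the letters TATAAA of a TATA box. Among 35116 RefSeq promoter windows of this length 32.7% held TTTAT on either strand, and among the 10 windows found for 7 of the 10 genes 5 did. The windows of GLP2R, ANPEP and DPP4 held none. AGATAA was in 9.17% of all windows and 3 of the 10. A match of letters is a description and not a measured site.

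CDX2 was 9.74-fold higher in 1-1 KO and 8.84-fold higher in 1-2 KO than in WT. CDX2 (chr13:27960918-27969315, minus strand) was counted 74, 66 and 77 times in WT, 803, 834 and 776 times in 1-1 KO and 819, 652 and 680 times in 1-2 KO. Its normalised level was 2.02 ± 0.368 CPM (read counts scaled to the size of the library; SD, n = 3 in this and all following values) in WT, 19.4 ± 0.739 in 1-1 KO and 17.6 ± 1.63 in 1-2 KO. The WT libraries lay apart from all 6 knockout libraries, while the libraries of the knockouts overlapped. With edgeR's quasi-likelihood test, whose p was adjusted by Benjamini-Hochberg over every tested gene, the log2 fold change was 3.28 (SE 0.11, adjusted p = 1.02e-11) in 1-1 KO against WT and 3.14 (SE 0.11, adjusted p = 1.93e-11) in 1-2 KO against WT. These comparisons share the 3 WT libraries. Between the knockouts it was -0.14 (SE 0.08, adjusted p = 0.149), and without 1-2 KO replicate 1, the highest of its group, it was -0.22 with an adjusted p of 0.0190. In bulk RNA, more cells that express CDX2 and more CDX2 mRNA per cell cannot be told apart. CDX1, the paralog of CDX2 in the intestine, was at 0 in all WT and 1-2 KO libraries and had 2 counts in all in 1-1 KO.

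**Figure D1:**
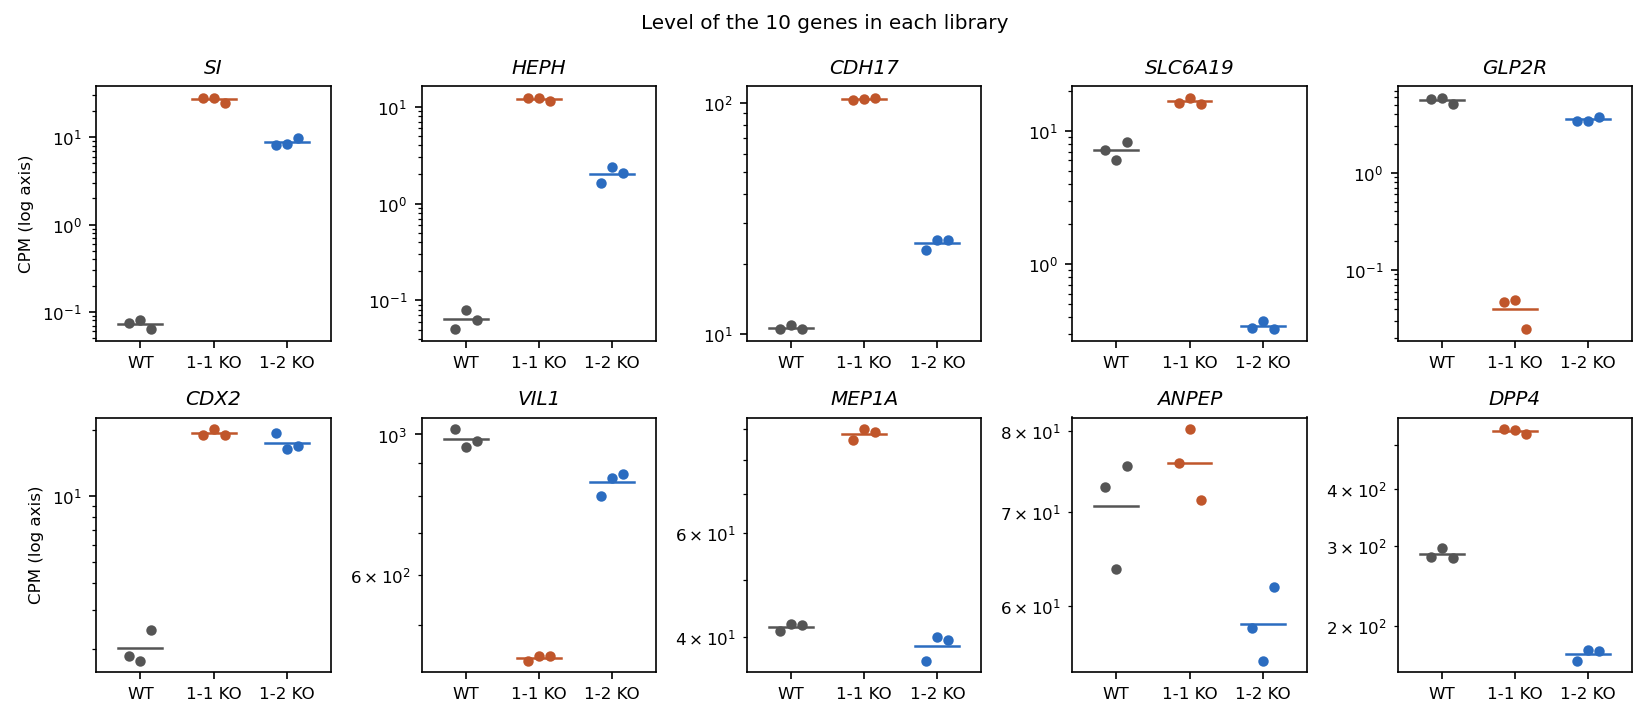
Normalised level of the 10 genes in CPM (logarithmic axes, which differ between panels) in each of the 9 libraries, with a point per library and a bar at the mean of each line. CDX2 was at 1.76 to 2.44 CPM in WT and at 16.4 CPM or more in every knockout library, SLC6A19 was lowest in 1-2 KO and GLP2R was lowest in 1-1 KO.

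Most other transcription factors of the intestinal epithelium changed less than CDX2, the exceptions being PRDM1 in 1-1 KO and GATA5 in 1-2 KO, which had 5 and 0 counts in WT and passed the filter only through these lines. Of 17 such factors besides CDX2, 16 were tested. In 1-1 KO against WT 9 rose, 2 fell and 5 did not pass the test, where 32.5% of all tested genes rose and 30.9% fell, and the median log2 fold change was 0.58 against 0.01 over all tested genes. In 1-2 KO against WT 11 rose, 3 fell and 2 did not pass, where 28.2% rose and 26.2% fell, with a median of 0.33 against 0.02. Without PRDM1 and GATA5 the counts were 8 rises and 2 falls, then 9 rises and 3 falls, over 14 genes. ISX, a homeobox factor that governs vitamin A uptake in the intestine, was at 8.47 ± 0.543 CPM in WT, 34.3 ± 1.32 in 1-1 KO and 18.4 ± 1.05 in 1-2 KO, with log2 fold changes of 2.01 (adjusted p = 9.83e-12) and 1.11 (adjusted p = 6.52e-09).

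HNF4A, which both liver and intestine use, was at 262 ± 7.62 CPM in WT, 248 ± 3.69 in 1-1 KO and 298 ± 16.3 in 1-2 KO. Its log2 fold change was -0.08 (adjusted p = 0.109) in 1-1 KO, or -0.08 with an adjusted p of 0.0383 in a fit without 1-2 KO replicate 1, and it was 0.18 (adjusted p = 0.00171) in 1-2 KO. Its signs turned when the median change of 50 neighbouring genes was subtracted. HNF4G, the paralog more typical of intestine, rose in both lines, from 9.42 ± 0.608 CPM to 17.2 ± 0.733 and 14.9 ± 0.897, with log2 fold changes of 0.87 (adjusted p = 1.06e-07) and 0.66 (adjusted p = 2.81e-06). GATA6 rose from 13.1 ± 0.627 CPM to 26.9 ± 0.280 in 1-1 KO and to 16.7 ± 3.03 in 1-2 KO, with log2 fold changes of 1.03 (adjusted p = 4.20e-07) and 0.35 (adjusted p = 0.00810). GATA4 was at 59.3 ± 5.65 CPM in WT and 63.3 ± 1.64 in 1-1 KO (0.095, adjusted p = 0.176, or 0.18 and 0.00791 without WT replicate 3) and rose to 71.1 ± 3.62 in 1-2 KO (0.26, adjusted p = 0.00166). With the median of its neighbours subtracted, this rise in 1-2 KO was not called (0.12, adjusted p = 0.102).

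**Figure D2:**
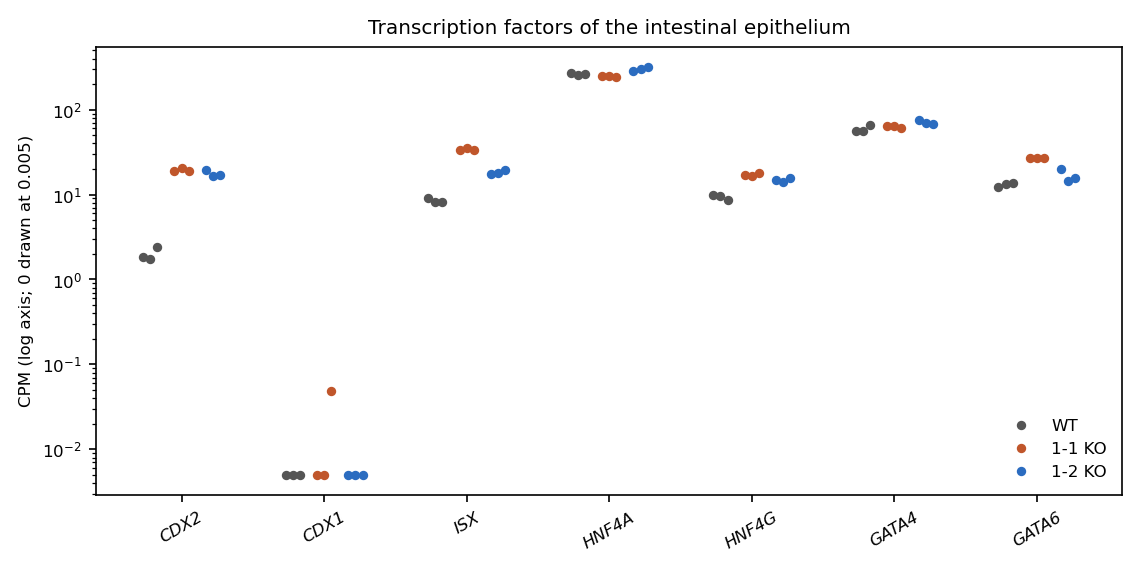
Level of CDX2 and 6 other transcription factors of the intestinal epithelium in CPM (logarithmic axis, with 0 drawn at 0.005), with a point per library in the order of the replicate numbers. ISX stood above WT in all 6 knockout libraries as CDX2 did, and CDX1 was at 0 in 8 of the 9 libraries.

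SI, the sucrase-isomaltase that splits sucrose and starch fragments at the brush border, was all but absent from WT and measurable in both knockouts. SI (chr3:164978898-165078496, minus strand) had 3, 3 and 2 counts in WT, 1198, 1150 and 1000 in 1-1 KO and 341, 333 and 392 in 1-2 KO. The levels were 0.073 ± 0.009 CPM in WT, 26.9 ± 2.10 in 1-1 KO and 8.75 ± 0.907 in 1-2 KO. No library of a line lay within the range of another line. The ratio of the summed counts was 367 in 1-1 KO to WT, with a 95% interval from counting error alone of 186 to 850, and 119 in 1-2 KO to WT, with an interval of 60.1 to 276. The level in 1-2 KO was 3.09-fold lower than that in 1-1 KO. Since the 3 WT libraries together held 8 counts of SI, the size of the ratios to WT is known only within these intervals.

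The peptidases of the brush border, which were abundant in WT, changed much less than SI and in differing directions. MEP1A (chr6:46793389-46839778, plus strand) encodes the alpha subunit of meprin, a metalloprotease, and had 1630, 1577 and 1323 counts in WT, 3648, 3705 and 3634 in 1-1 KO and 1537, 1596 and 1588 in 1-2 KO. It rose from 41.7 ± 0.603 CPM to 88.5 ± 2.01 in 1-1 KO, a log2 fold change of 1.09 (SE 0.04, adjusted p = 5.37e-11). In 1-2 KO it was at 38.7 ± 1.96 CPM, below the range of WT in all 3 libraries, with a log2 fold change of -0.10 (SE 0.04, adjusted p = 0.0564). This value was close to the threshold and passed it without WT replicate 3 (-0.12, adjusted p = 0.0397) and without 1-2 KO replicate 2 (-0.13, adjusted p = 0.0390). It lies on chromosome 6, whose tested genes had a median log2 fold change of -0.27 in 1-2 KO, and relative to its 50 nearest genes MEP1A was higher there, by 0.32 (adjusted p = 2.73e-05).

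DPP4 (chr2:161992245-162074394, minus strand), a dipeptidyl peptidase that takes dipeptides off the amino end of peptides and inactivates incretin hormones, rose in one knockout and fell in the other. It had 11273, 11147 and 8891 counts in WT, 22878, 22110 and 21476 in 1-1 KO and 7072, 7056 and 7087 in 1-2 KO. Its level of 287 ± 8.51 CPM in WT stood between 535 ± 7.48 in 1-1 KO and 174 ± 5.27 in 1-2 KO, with no overlap of any 2 lines. The log2 fold change was 0.90 (SE 0.04, adjusted p = 7.10e-11) in 1-1 KO against WT, -0.72 (SE 0.04, adjusted p = 8.02e-10) in 1-2 KO against WT and -1.62 (SE 0.04, adjusted p = 1.47e-13) in 1-2 KO against 1-1 KO. The 44 tested genes within 5 Mb of DPP4 had a median log2 fold change of 0.64 in 1-1 KO, and with the median of its 50 neighbours subtracted the change of DPP4 in 1-1 KO was 0.33. The lncRNA DPP4-DT on the opposite strand, which overlaps the start of DPP4, had 8 to 28 counts.

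ANPEP (chr15:89784895-89815401, minus strand), the aminopeptidase N that trims peptides from their amino end, was the member whose lines differed least. It had 2904, 2391 and 2381 counts in WT, 3210, 3301 and 2915 in 1-1 KO and 2437, 2183 and 2481 in 1-2 KO, or 70.7 ± 6.17, 75.9 ± 4.40 and 58.2 ± 3.56 CPM. WT and 1-1 KO overlapped, with a log2 fold change of 0.10 (SE 0.06, adjusted p = 0.176). ANPEP fell by 0.28 on the log2 scale in 1-2 KO against WT (SE 0.06, adjusted p = 0.00193) and by 0.38 against 1-1 KO (SE 0.06, adjusted p = 1.04e-04). Its neighbourhood on chromosome 15 was lower in 1-1 KO, the median over 51 genes being -0.31 on the log2 scale, and relative to its 50 nearest genes ANPEP was higher in 1-1 KO, by 0.41 (adjusted p = 8.00e-05).

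The other enzymes of the brush border included genes that rose from low levels and a gene that fell. Of 14 listed, 9 were tested, and 5 rose and 1 fell in 1-1 KO against WT, while 4 rose and 3 fell in 1-2 KO against WT, or 66.7% and 77.8% called where 63.4% and 54.4% of all tested genes were. The median log2 fold changes were 2.25 and 0.83. In 5 of the 9, TREH, ALPI and ACE among them, no WT library reached the cutoff of the filter, so that they were tested only because other libraries were higher. The other 4 genes gave 1 rise and 1 fall in 1-1 KO, with a median of -0.10, while in 1-2 KO there were 1 rise and 3 falls, with a median of -0.70. FOLH1, a glutamate carboxypeptidase that frees dietary folate, rose from 0.619 ± 0.190 CPM to 3.19 ± 0.523 in 1-1 KO and 3.96 ± 0.174 in 1-2 KO. MGAM, the maltase-glucoamylase that resembles SI in sequence and function, fell in both lines, from 10.3 ± 0.471 CPM to 3.71 ± 0.272 and 4.07 ± 0.197, with log2 fold changes of -1.47 (adjusted p = 3.95e-09) and -1.33 (adjusted p = 1.24e-08). TREH, the trehalase, was under 0.5 CPM in every library, with 8 counts in WT, 45 in 1-1 KO and 15 in 1-2 KO. ENPEP, a glutamyl aminopeptidase, was at 8.66 ± 0.853 CPM in WT, 7.66 ± 0.465 in 1-1 KO and 6.28 ± 0.508 in 1-2 KO and fell in 1-2 KO (log2 fold change -0.46, adjusted p = 8.67e-04). LCT had 2, 19 and 5 counts in the 3 lines in all, MEP1B and MME had 2 counts or fewer per line, and none of these 3 was tested.

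VIL1, the gene with the highest level per exon length of the 10, fell in both knockouts. VIL1 (chr2:218419121-218453295, plus strand) encodes villin, which bundles the actin filaments of microvilli, and had 40580, 35825 and 30842 counts in WT, 18608, 18428 and 18239 in 1-1 KO and 33730, 33972 and 34766 in 1-2 KO. Its level was 984 ± 32.6 CPM in WT, 445 ± 4.56 in 1-1 KO and 840 ± 35.2 in 1-2 KO, and no 2 lines overlapped. The log2 fold change was -1.15 (SE 0.04, adjusted p = 1.38e-11) in 1-1 KO, -0.23 (SE 0.04, adjusted p = 1.75e-04) in 1-2 KO, and 0.92 (SE 0.04, adjusted p = 8.28e-11) in 1-2 KO against 1-1 KO. USP37 overlaps VIL1 on the opposite strand and had 1443 to 1900 counts per library.

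Other genes of the microvillus moved in both directions. Of 16 listed, 15 were tested, with 7 rises and 4 falls in 1-1 KO against WT and 4 rises and 7 falls in 1-2 KO against WT. These are 73.3% called in each, beside 63.4% and 54.4% of all tested genes, and the median log2 fold changes were 0.54 and -0.10. For 1 of the 15, counted as a rise in both comparisons, no WT library reached the cutoff of the filter. The other 14 gave 6 rises and 4 falls in 1-1 KO and 3 rises and 7 falls in 1-2 KO, with medians of 0.30 and -0.18. USH1C, the harmonin that ties microvilli together at their tips, rose from 5.94 ± 0.411 CPM to 21.3 ± 0.118 in 1-1 KO and 14.1 ± 0.548 in 1-2 KO, with log2 fold changes of 1.84 (adjusted p = 2.85e-11) and 1.24 (adjusted p = 2.51e-09). MISP, an actin-bundling protein of the microvillus rootlet, rose to 30.4 ± 0.799 CPM in 1-1 KO from 8.97 ± 0.990 in WT and fell to 6.81 ± 0.606 in 1-2 KO, with log2 fold changes of 1.77 (adjusted p = 2.64e-10) and -0.39 (adjusted p = 0.00184). The actin bundler PLS1 was at 60.3 ± 1.63, 57.7 ± 0.958 and 41.9 ± 0.249 CPM and fell in 1-2 KO (log2 fold change -0.53, adjusted p = 3.15e-08). EPS8, which caps actin filaments at the microvillus tip, was at 177 ± 0.986, 184 ± 1.02 and 130 ± 1.68 CPM and also fell in 1-2 KO (-0.45, adjusted p = 1.97e-08). EZR, ezrin, which links the actin bundle to the membrane, fell in both, from 442 ± 3.92 CPM to 402 ± 3.79 and 349 ± 16.5.

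SLC6A19, the main carrier of neutral amino acids into enterocytes, differed in opposite directions from WT in the knockouts. SLC6A19 (chr5:1201595-1225111, plus strand) had 284, 227 and 259 counts in WT, 687, 731 and 654 in 1-1 KO and 14, 15 and 13 in 1-2 KO. The levels were 7.13 ± 1.08 CPM in WT, 16.7 ± 0.953 in 1-1 KO and 0.344 ± 0.028 in 1-2 KO. It was 2.36-fold higher in 1-1 KO than in WT and 20.6-fold lower in 1-2 KO than in WT, with a 95% interval from counting error of 15.1 to 28.8 for the latter. In the kidney the protein needs a partner, CLTRN (collectrin), to reach the membrane. CLTRN was at 2.58 ± 0.326 CPM in WT, 23.1 ± 0.878 in 1-1 KO and 1.89 ± 0.102 in 1-2 KO, with log2 fold changes of 3.15 (adjusted p = 2.13e-12) and -0.46 (adjusted p = 0.00345). The related imino acid carrier SLC6A20 had 1 count in each line.

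Of the 19 other absorptive transporters listed, 14 were tested, with 8 rises and 2 falls in 1-1 KO against WT and 5 rises and 6 falls in 1-2 KO against WT. This put 71.4% and 78.6% past the test, beside 63.4% and 54.4% of all tested genes, with median log2 fold changes of 0.58 and -0.22. For 1 of the 6 that fell in 1-2 KO, no library of that line reached the cutoff of the filter. Without it 5 rose and 5 fell of 13 there, with a median of -0.14. SLC1A1, a carrier of acidic amino acids, rose from 1.17 ± 0.138 CPM to 8.36 ± 0.619 in 1-1 KO and 6.24 ± 0.933 in 1-2 KO, with log2 fold changes of 2.83 (adjusted p = 5.65e-10) and 2.40 (adjusted p = 5.15e-09). ABCG8, a subunit of the sterol exporter, rose from 2.21 ± 0.259 CPM to 3.78 ± 0.018 in 1-1 KO and fell to 0.853 ± 0.063 in 1-2 KO, with log2 fold changes of 0.77 (adjusted p = 5.14e-05) and -1.37 (adjusted p = 1.86e-06).

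**Figure D3:**
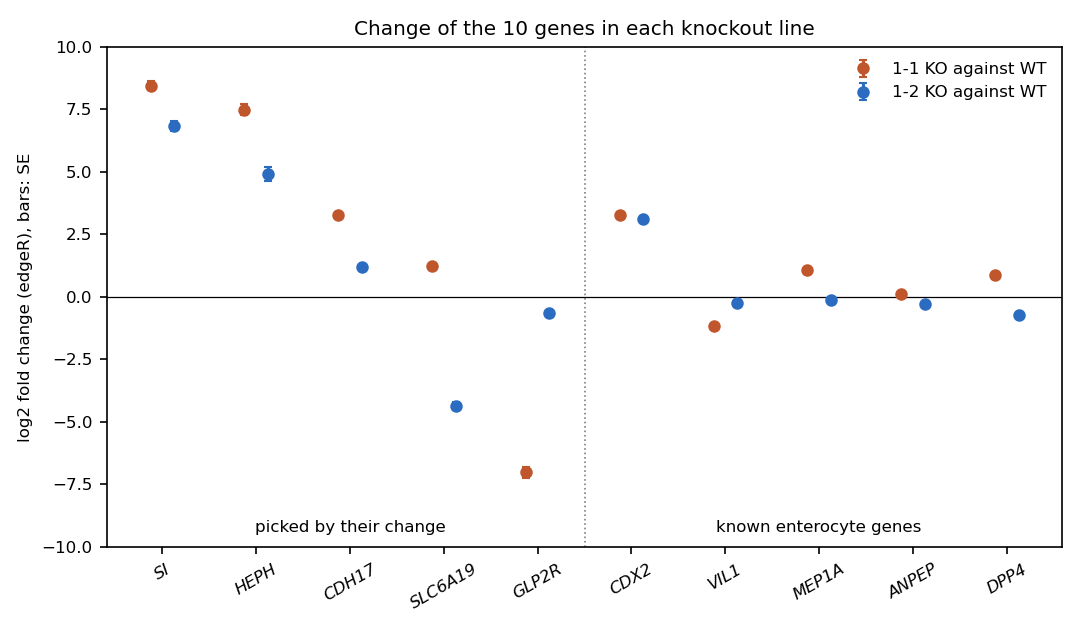
Log2 fold change of the 10 genes in each knockout against WT by edgeR, with bars for the SE, which are hidden by the point for most genes. The values run from 8.46 for SI to -7.01 for GLP2R, both in 1-1 KO, and the 5 genes to the left of the dotted line were picked by their change and have no test.

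HEPH, the membrane-bound ferroxidase of enterocytes that oxidises iron as it leaves for the blood, was near absent from WT. HEPH (X chromosome, chrX:66162671-66268867, plus strand) had 2, 3 and 2 counts in WT, 526, 511 and 468 in 1-1 KO and 68, 96 and 82 in 1-2 KO. The levels were 0.065 ± 0.015 CPM in WT, 12.1 ± 0.552 in 1-1 KO and 2.02 ± 0.399 in 1-2 KO, with the 3 lines apart. The ratio of summed counts to WT was 188 in 1-1 KO, with a 95% counting interval of 91.2 to 469, and 31.3 in 1-2 KO, with an interval of 14.99 to 78.8. Its level was 6.01-fold lower in 1-2 KO than in 1-1 KO.

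CP, ceruloplasmin, the ferroxidase that hepatocytes secrete and the closest relative of HEPH listed, fell in both lines, from 61.2 ± 1.97 CPM to 38.3 ± 0.598 in 1-1 KO (log2 fold change -0.68, adjusted p = 4.09e-09) and 55.4 ± 1.48 in 1-2 KO (-0.15, adjusted p = 0.00655). The latter was not called when libraries were scaled by their size alone (-0.09, adjusted p = 0.0555) or when the median of its neighbours was subtracted (-0.07, adjusted p = 0.140). SLC40A1, ferroportin, the exporter that HEPH serves, rose from 137 ± 2.27 CPM to 253 ± 4.19 and 165 ± 11.3, with log2 fold changes of 0.88 (adjusted p = 7.34e-10) and 0.26 (adjusted p = 1.77e-04). SLC11A2, the apical importer of iron, fell in 1-1 KO by 0.35 on the log2 scale (adjusted p = 3.59e-06) and rose in 1-2 KO by 0.24 (adjusted p = 1.64e-04). CYBRD1, the apical iron reductase, was under 0.5 CPM in every library, with 9 counts in WT, 51 in 1-1 KO and 45 in 1-2 KO, and passed the filter only through the knockouts.

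CDH17, the liver-intestine cadherin of the lateral membrane of enterocytes, was detected in every line. CDH17 (chr8:94127162-94217303, minus strand) had 418, 408 and 329 counts in WT, 4344, 4248 and 4285 in 1-1 KO and 972, 1008 and 1021 in 1-2 KO. The levels were 10.6 ± 0.242 CPM in WT, 103.7 ± 1.23 in 1-1 KO and 24.6 ± 1.34 in 1-2 KO, and the lines did not overlap. It was 9.77-fold higher in 1-1 KO than in WT, 2.32-fold higher in 1-2 KO than in WT, and 4.21-fold lower in 1-2 KO than in 1-1 KO.

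Of 9 other adhesion genes of the intestinal epithelium 5 were tested, of which 3 rose in 1-1 KO and 2 did not pass the test, and 1 rose and 2 fell in 1-2 KO against WT. The 60.0% called in each stood near the 63.4% and 54.4% of all tested genes. CDH1, E-cadherin, rose from 99.3 ± 2.41 CPM to 138 ± 1.43 in 1-1 KO (log2 fold change 0.48, adjusted p = 1.71e-08) and fell to 35.6 ± 0.600 in 1-2 KO (-1.48, adjusted p = 4.53e-13). EPCAM, an adhesion protein of most epithelia that mature hepatocytes lack, rose from 35.5 ± 0.718 CPM to 103.7 ± 0.869 in 1-1 KO (1.55, adjusted p = 5.07e-13) and was at 34.7 ± 0.940 in 1-2 KO (-0.03, adjusted p = 0.506). CEACAM1 was at 51.6 ± 1.75 CPM in WT and 49.1 ± 2.35 in 1-1 KO and fell to 17.2 ± 0.343 in 1-2 KO (-1.58, adjusted p = 6.65e-12). CDH16, a cadherin of the same subfamily as CDH17, was under 0.5 CPM in every library and was not tested. CEACAM6 was at 0 in WT and entered the test only through 1-1 KO, since no library of WT or 1-2 KO reached the cutoff of the filter. It is counted above as 1 of the 3 rises in 1-1 KO and as the only rise in 1-2 KO against WT. Without this gene, 2 rose and 0 fell of 4 in 1-1 KO, while 0 rose and 2 fell of 4 in 1-2 KO against WT.

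GLP2R, the receptor of the gut growth hormone GLP-2, differed from the other picked genes in being lower in both knockouts than in WT. GLP2R (chr17:9822206-9892099, plus strand) had 227, 223 and 161 counts in WT, 2, 2 and 1 in 1-1 KO and 144, 136 and 152 in 1-2 KO. The levels were 5.58 ± 0.434 CPM in WT, 0.040 ± 0.014 in 1-1 KO and 3.54 ± 0.217 in 1-2 KO. The ratio of summed counts of WT to 1-1 KO was 139, with a 95% counting interval of 59.4 to 431, and the level in 1-2 KO was 1.59-fold lower than in WT. Its relative GLP1R, the receptor of the incretin GLP-1, had 8 counts in WT, 69 in 1-1 KO and 34 in 1-2 KO, and no WT library reached the cutoff of the filter. GCG, the gene of the precursor of both hormones, had 4, 0 and 1 counts in the 3 lines.

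Counted over all 8 lists, 72 of 93 enterocyte genes other than the 10 were tested. In 1-1 KO against WT 41 rose and 12 fell, so that 73.6% were called against 63.4% of all tested genes, and the median log2 fold change was 0.59 against 0.01. In 1-2 KO against WT 31 rose and 23 fell, 75.0% against 54.4%, with a median of 0.14 against 0.02. In 1-2 KO against 1-1 KO 12 rose and 45 fell, where 33.1% and 32.2% of all tested genes did, or 79.2% against 65.3%, with a median of -0.32 against 0.01. Of the 5 known members 4 were called in each comparison. These were 3 rises and 1 fall in 1-1 KO against WT, 1 rise and 3 falls in 1-2 KO against WT, and 1 rise and 3 falls in 1-2 KO against 1-1 KO. With most of all genes called in every comparison, a call alone sets no gene apart. The lists were written with results of these data known. Some of their genes had a compared line in which no library reached the cutoff of the filter, 12 in 1-1 KO against WT, 13 in 1-2 KO against WT and 5 in the third comparison. Without them 31 rose and 12 fell of 60 in 1-1 KO against WT, 21 rose and 22 fell of 59 in 1-2 KO against WT, and 11 rose and 41 fell of 67 in 1-2 KO against 1-1 KO, with medians of 0.50, -0.02 and -0.29. In the list of enterocyte lipid handling, FABP1, a fatty acid binding protein that liver and intestine share, rose from 32.8 ± 0.336 CPM to 102 ± 6.27 in 1-1 KO and 81.6 ± 2.35 in 1-2 KO. RBP2, the retinol binding protein of enterocytes, was at 0.037 ± 0.040, 4.03 ± 0.480 and 0.182 ± 0.107 CPM, with 4, 501 and 22 counts, and no WT library of it reached the cutoff.

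**Figure D4:**
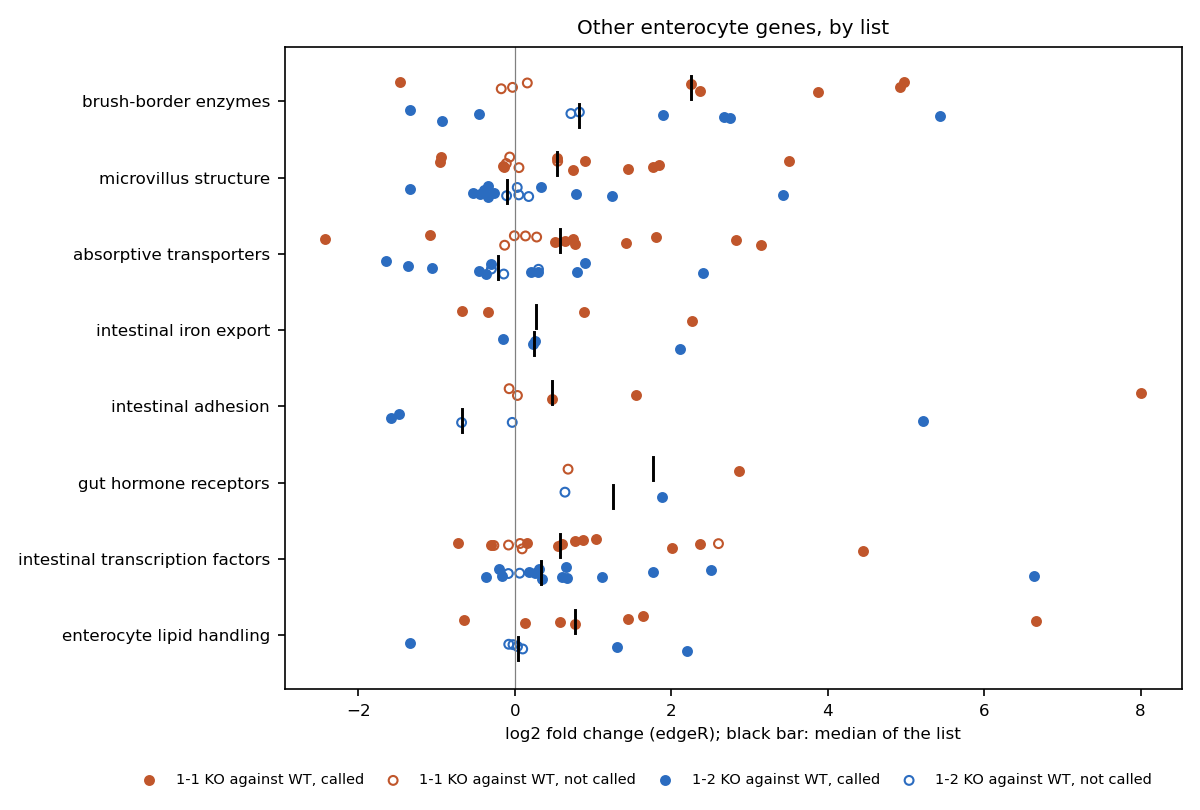
Log2 fold change of the tested enterocyte genes other than the 10, with 1 row per list and a colour per knockout. Filled points passed an adjusted p of 0.05, open points did not, and black bars mark the median of a list, which was highest for the brush-border enzymes in 1-1 KO at 2.25, or -0.10 without the 5 genes below the cutoff of the filter in WT.

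Levels of the 10 genes can be ordered only after division by the length of their exons. That length joins all annotated exons of a gene, 14432 bases for DPP4 and 3088 for MEP1A. It is not the length of the transcripts expressed here, so that the order depends on the annotation. Per kilobase of annotated exon VIL1 led in every line, at 143 CPM per kb in WT, 64.6 in 1-1 KO and 122 in 1-2 KO. In WT it was followed by DPP4 at 19.9, ANPEP at 14.0 and MEP1A at 13.5, of which the last pair overlapped between libraries, then by CDH17 at 2.73, SLC6A19 at 1.35, GLP2R at 0.980, CDX2 at 0.574, SI at 0.012 and HEPH at 0.007 CPM per kb. In 1-1 KO the order was VIL1, DPP4 at 37.1, MEP1A at 28.6, CDH17 at 26.7, ANPEP at 15.03, CDX2 at 5.52, SI at 4.39, SLC6A19 at 3.17, HEPH at 1.22 and GLP2R at 0.007 CPM per kb, without overlap of neighbours. In 1-2 KO MEP1A at 12.5, DPP4 at 12.1 and ANPEP at 11.53 overlapped in turn and were followed by CDH17 at 6.35, CDX2 at 5.00, SI at 1.42, GLP2R at 0.622, HEPH at 0.205 and SLC6A19 at 0.065 CPM per kb. The structural protein and the 3 peptidases thus held the upper places in WT, and the sucrase and the ferroxidase were at the bottom.

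The 5 picked genes did not share 1 pattern over the libraries. SI, HEPH and CDH17 were highest in 1-1 KO, intermediate in 1-2 KO and lowest in WT. SLC6A19 was highest in 1-1 KO and lowest in 1-2 KO, and GLP2R was highest in WT and lowest in 1-1 KO. Over the 9 libraries, which form 3 groups, the genes whose log2 CPM correlated most with that of SI were LYPD6B, TLL1 and SGK1. Those for HEPH were ENPP5, ETV1 and EFEMP1, and those for CDH17 were RAB11FIP1, HOXC10 and FBN1. For SLC6A19 they were CDH1, EPAS1 and FBXO2, and for GLP2R SHC1, CNN1 and AKAP12. All 15 coefficients were 0.997 or more, but between 400 genes for SI and 875 for GLP2R had a coefficient over 0.95, since any gene with the same order and spacing of 3 line means reaches such values.

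The members lie on 9 chromosomes, and the genes within 5 Mb of them were compared with each. For 1 of the 10 changes of known genes against WT, that of CDX2 in 1-1 KO, no tested gene there changed as far in the same direction. Around the known genes other than CDX2 between 4 genes and 57 did, the last around MEP1A in 1-2 KO. The picked genes were chosen for the size of their change, so that standing out from their surroundings follows from the choice and is only described. No tested gene within 5 Mb of SI or HEPH changed as far in the same direction in either knockout, and none within 5 Mb of SLC6A19 in 1-2 KO or of GLP2R in 1-1 KO. Around SLC6A19 1 tested gene changed as far in the opposite direction in 1-2 KO. The median log2 fold change of the 32 tested genes around SI was 0.06 in 1-1 KO and -0.22 in 1-2 KO, and that of the 24 around HEPH was -0.24 and -0.03. SLITRK3, the tested gene nearest to SI at 108224 bases, had 6 counts in WT, 83 in 1-1 KO and 15 in 1-2 KO and passed the filter only through 1-1 KO. LINC01322, whose start lies about 0.128 Mb from that of SI, had 83 counts in WT, 19 in 1-1 KO and 11 in 1-2 KO. LINC01322 passed the filter only through WT. Near SLC6A19, the transcript TERLR1 at 22990 bases rose in 1-1 KO (1.36, adjusted p = 1.35e-04) and fell in 1-2 KO (-0.75, adjusted p = 0.0472), the directions in which SLC6A19 differed, while TERT on its other side, at 28036 bases, had changes of -0.05 (adjusted p = 0.781) and 0.16 (adjusted p = 0.336). Beside GLP2R, USP43 rose in 1-2 KO (3.42, adjusted p = 5.84e-09) and MYH4 rose in both lines (2.80, adjusted p = 2.11e-10, and 0.67, adjusted p = 0.00154). Around CDH17, ESRP1, a splicing regulator of epithelial cells, went from 0 counts in every WT library to 77, 97 and 100 in 1-1 KO and 3, 2 and 5 in 1-2 KO, and ERICH5 rose further than CDH17 in 1-2 KO (1.31, adjusted p = 3.65e-07).

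CDX2 belongs to the ParaHox cluster of homeobox genes with PDX1, a factor of the pancreas and duodenum, and GSX1, which is best known from the nervous system. PDX1, whose start lies about 0.049 Mb from that of CDX2, had 5, 3 and 3 counts in WT, 35, 37 and 43 in 1-1 KO and 75, 40 and 46 in 1-2 KO. It was higher in all 6 knockout libraries than in any of WT, and it passed the filter only through the knockouts. GSX1 was at 0 in all 9 libraries. LINC00543, at 5548 bases from CDX2, rose in both lines, by 1.58 (adjusted p = 0.00642) and 2.43 (adjusted p = 1.35e-04). PAN3, the nearest tested gene on the other side of CDX2, changed by -0.18 (adjusted p = 0.00498) and 0.48 (adjusted p = 9.53e-07). The median of the 43 tested genes within 5 Mb of CDX2 was -0.20 in 1-1 KO and 0.09 in 1-2 KO. PDX1 and FLT1 were the only ones of them that rose as far as CDX2 in 1-2 KO. FLT1 had 1 count in WT, 3 in 1-1 KO and 37 in 1-2 KO and passed the filter only through 1-2 KO. ESRP1, ERICH5, LINC01322, PDX1, GSX1 and FLT1 are named for their place or their change after their values were seen.

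**Figure D5:**
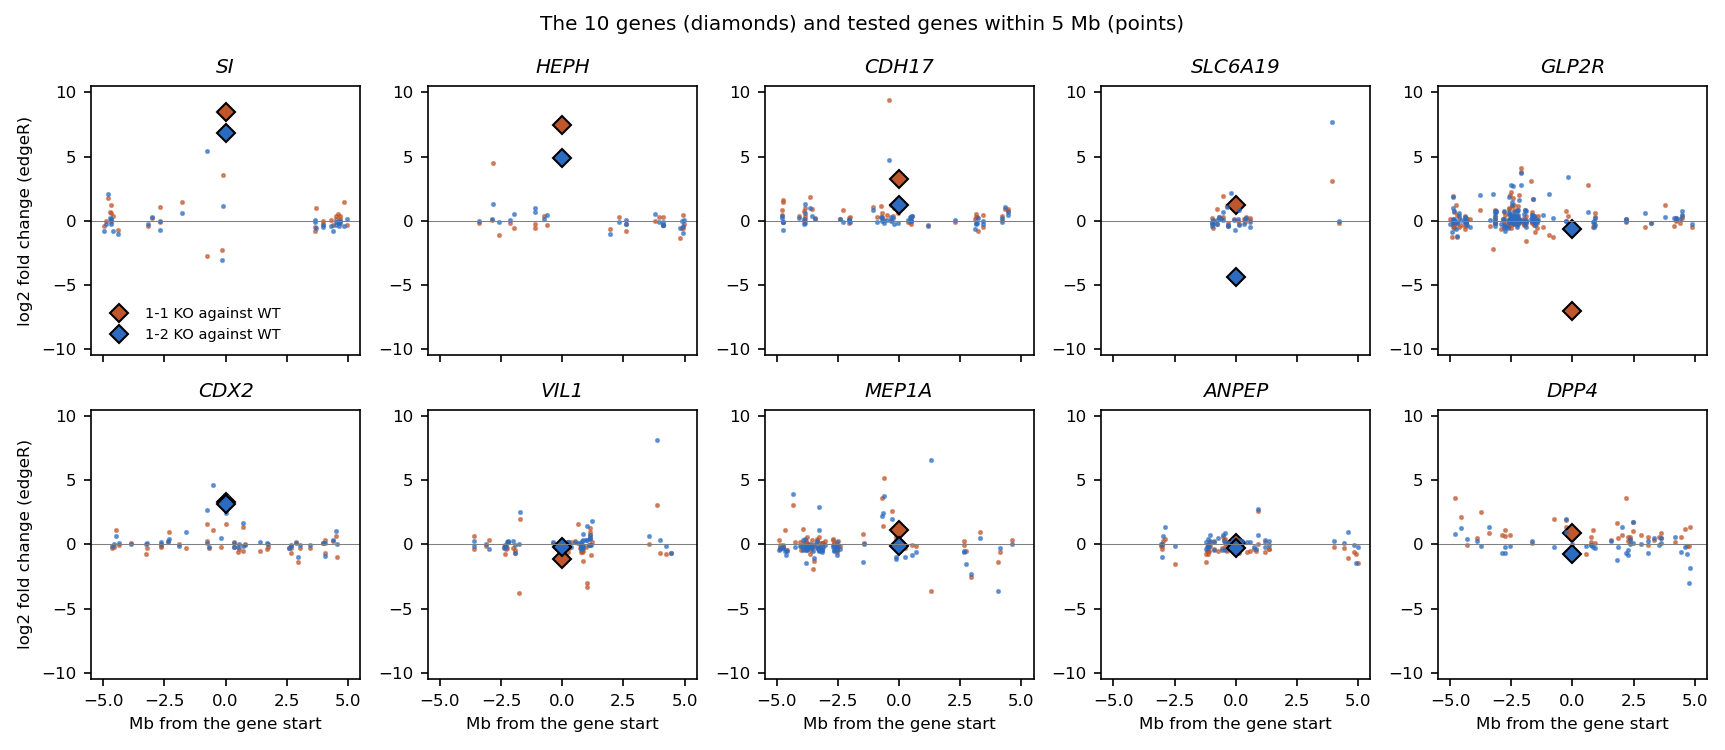
Log2 fold change by edgeR of each of the 10 genes (diamonds) and of the tested genes within 5 Mb (points) against the distance from the start of the gene in Mb. The diamonds of SI and HEPH, which were picked for their change, stand above every point around them in both knockouts. Those of VIL1, MEP1A, ANPEP and DPP4 lie within the spread of theirs.

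Markers of other cell types moved with the lines as well. The summed level of 14 hepatocyte markers was 11855 to 12310 CPM in WT, 28234 to 28945 in 1-1 KO and 18210 to 19954 in 1-2 KO, with AFP highest. Without AFP it was 10145 to 10473, 20102 to 20599 and 11173 to 12383 CPM. Of 13 tested markers 12 rose and 1 fell in 1-1 KO against WT, with a median log2 fold change of 0.58. In 1-2 KO against WT 5 rose and 6 fell, with a median of 0.03. Of all tested genes 32.5% rose and 30.9% fell in the former comparison, and 28.2% rose and 26.2% fell in the latter. The hepatocyte markers that fell in 1-2 KO were TF, TTR, FGA, FGB, ASGR1 and CPS1. The 9 goblet cell markers summed to 25.3 to 25.7, 31.5 to 32.7 and 10.9 to 11.1 CPM, with AGR2 highest and ATOH1 and MUC2 at 0 in WT. Without AGR2 they summed to 4.67 to 5.86, 11.2 to 12.1 and 4.72 to 4.97 CPM, and WT and 1-2 KO overlapped. The 9 enteroendocrine markers summed to 1.24 to 1.65, 3.63 to 4.57 and 1.10 to 1.35 CPM, mostly CHGB. The 6 Paneth cell markers summed to 113 to 114, 98.0 to 103.98 and 19.1 to 19.8 CPM, nearly all of it LYZ, which leukocytes also express. The 5 markers of intestinal stem cells, mostly LGR5, summed to 25.8 to 31.3, 20.2 to 21.0 and 29.2 to 30.3 CPM, with ASCL2 at 0 throughout. The 7 cholangiocyte markers, led by KRT19, summed to 346 to 385, 459 to 467 and 511 to 604 CPM. In 1-2 KO against WT KRT19 and SPP1 rose, SOX9 fell and CFTR and MUC1 were not called. KRT7, which passed the filter only through WT, was lower in both knockouts. The 10 markers of stromal, endothelial and blood cells, led by COL1A1 and with HBB at 0, summed to 22.4 to 24.3, 25.2 to 26.6 and 25.1 to 26.5 CPM. The part of these shifts in the results on the 10 genes was not tested.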

How the data were processed

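Stranded mRNA libraries were made from WT, 1-2 KO and 1-1 KO cells of Huh-7, 3 per line. Alignment was done by the authors with STAR on hg38 (annotation version 104) and counting with featureCounts. The deposited table holds raw counts per gene, neither normalised nor filtered. Whether strand was used and how reads matching several places were counted is not given in the sources used here. Total counts were between 32384469 and 41782387 per library, and intervals on ratios (95%, exact binomial) cover counting error only.

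Gene symbols, positions and exon lengths came from GENCODE 44 on GRCh38, which held 60463 of the 60664 gene identifiers. Counts were tested in R 4.3.3 with edgeR 4.0.16 (filterByExpr at 10 counts and a total of 15, TMM normalization, quasi-likelihood test). The 3 lines were fitted together over all 9 libraries, and Benjamini-Hochberg adjustment ran over 17207 genes, with a threshold of 0.05. CPM use the TMM-scaled library sizes. A pseudocount of 0.1 CPM was added for correlations and for the SD against which moves of the picked genes were judged. Where a line had 1 to 3 counts per library, ratios of summed counts are given with their interval, and a gene called higher or lower in the text passed this test unless it is one of the 5 picked genes. DESeq2 1.42.0, which the study used, was run as an alternative. Tables were handled with pandas 2.3.3, scipy 1.17.1 and numpy 2.4.6 in Python 3.11.15, and figures drawn with matplotlib 3.10.9. The test was checked on simulated counts. Libraries of the same line differed by more than sampling noise, the chi-square divided by its degrees of freedom being 2.07 to 16.1, so that none was counted as a duplicate.

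The members, the 8 gene lists and the 7 lists of cell type markers were chosen with earlier results of these data known. The genes named in the text are the 10 members, partners of each chosen from general knowledge, and in each list the 2 genes with the smallest adjusted p per knockout and a mean of at least 1 CPM. They also include the 3 genes most like each picked member, the tested genes next to a picked member, and the leading gene of each marker list. Some genes that this rule names are counted in their lists but not reported here by name or value. Alternatives were another normalization, DESeq2, other filters on low counts, a fit of 2 lines, an adjusted p under 0.01, a term for the replicate number, subtraction of the median of 50 neighbouring genes, and leaving out each library.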

Additional observations from a re-analysis of the deposited data

How the results depend on the processing

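The number of known members called (4 in each comparison) and the number of other enterocyte genes called stayed within 1.5 times of their values under all alternatives run, one of which, chosen after seeing the data, left out genes below the filter's cutoff in every library of a compared line. Leaving out each library in turn gave 4 members called in 1-1 KO against WT and 4 to 5 in the other comparisons, and 50 to 54, 48 to 54 and 52 to 59 other enterocyte genes called in 1-1 KO against WT, 1-2 KO against WT and 1-2 KO against 1-1 KO. The replicate numbers did not pair the libraries, since the correlations of deviations between libraries with the same number were between -0.187 and 0.0474. With the number as a replicate block 53, 52 and 56 other enterocyte genes and 4, 5 and 4 members were called, the added member being MEP1A in 1-2 KO against WT (-0.11, adjusted p = 0.0499). MEP1A was also called lower there with DESeq2's size factors (adjusted p = 0.0377) and with at least 10 counts in every library (adjusted p = 0.0369).

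Subtracting the median log2 fold change of 50 neighbouring genes by construction removes shifts shared along a chromosome. Under this alternative 7 directions turned among genes called with or without the subtraction. These were HNF4A in 1-1 KO against WT (0.21), 1-2 KO against WT (-0.10) and 1-2 KO against 1-1 KO (-0.20). The others were EPS8 in 1-1 KO against WT (-0.18), MEP1A in 1-2 KO against WT (0.32), and GATA4 (-0.039) and FABP1 (0.082) in 1-2 KO against 1-1 KO. Under it CDX2 was also called lower in 1-2 KO than in 1-1 KO (-0.39, adjusted p = 9.87e-04). Among the other values of single genes, 1854 stayed the same. For tested genes this meant the same side of the threshold. A change of sign between fits that were both not called was counted as the same. For picked genes it meant a move of less than 1 SD. A further 20 values passed the threshold newly and 32 no longer passed it. For picked genes, which carry no test, 10 values moved by more than 1 SD. The picked genes kept their direction in all alternatives, which lends no support, since they were chosen for strong differences. In 1-1 KO against WT SI ranged between 8.36 and 8.52 and GLP2R between -7.15 and -6.77. These fits reuse the same few counts, so that the ranges do not cover counting error. Counts of 1 to 3 per library of SI and HEPH in WT and of GLP2R in 1-1 KO limit how precisely their ratios are known.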
